A study of Homo sapiens with 8 samples.

Results

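The homeobox and PAX genes examined here were 58 protein-coding genes that encode DNA-binding regulators of development, taken by name from GENCODE on GRCh37, out of 20176 protein-coding genes. They comprised 9 PAX genes, 8 LIM homeobox (*LHX*) genes, 9 *NKX*, 5 from *SIX2* to *SIX6*, 6 *IRX* and 6 *DLX* genes, 4 *EMX* and *OTX* genes, 7 *MSX*, *EN*, *GBX* and *BARHL* genes, and 4 *CDX* and *TLX* genes. All 58 were found in the annotation. A gene was counted as marked in a line when a peak of that line overlapped, by at least 1 bp, a window reaching 1500 bp upstream and 1000 bp downstream around any of its transcription start sites (TSS), or, as a separate count, when a peak overlapped the gene body.

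The data were MBD-seq peak lists of 8 NB cell lines, which are permanent cultures of tumor cells, with 1 DNA sample per line. MBD-seq uses the methyl-CpG-binding domain of MBD2 to pull densely methylated fragments out of sheared DNA, and places where their reads pile up appear as peaks. LAN-2, CHP-902R, N206 and IMR-32 were labelled as *MYCN* amplified (MNA), and SK-N-AS, CLB-GA, SJNB-1 and SH-SY5Y as *MYCN* single copy, with the 4 lines of each group serving as its replicates. Since each line is one culture, the spread within a group is the spread between different tumors' lines and holds no repeat of the same line.

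Homeobox and PAX proteins bind DNA through a homeodomain or a paired domain and set the identity of cells along the axes of the embryo, in the brain, the neural crest, the skeleton and the inner organs. Their genes lie in unusually long stretches of CpG-rich DNA, and in embryonic stem cells many of them are held silent by Polycomb proteins rather than by DNA methylation. In adult tissues most of them are silent outside the few cell types they specify, and CpG islands of this class are a frequent place of methylation in tumors. NB arises from the sympathetic lineage of the neural crest.

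The lists held between 70816 peaks (SJNB-1) and 112412 peaks (LAN-2), with a lowest score of 50 in each. The lists carry no read counts, so the depth of each line is unknown and a missing peak cannot be told apart from too little coverage. Peaks covered 8.68% to 19.8% of the DNA within 1 Mb of *MYCN* in the MNA lines and 1.87% to 4.76% in the single copy lines, which separates the lines as their labels do. IMR-32 stood apart from the other 7 lines for the genes described here. Its peaks were also the widest, with a mean of 646 bp against 514 to 618 bp in the other lines. Results that rest on IMR-32 are therefore given with and without it, and it was singled out after its values were seen.

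Stretches of 250 bases show examples of the DNA at these genes, read from GRCh37 along the strand of the gene, with the C and G of each CpG in capitals. The first 3 are those that peaks of several lines have in common. At *CDX1*, which encodes a regulator of the intestinal lining, the stretch chr5:149546840-149547089 (plus strand) starts 499 bp downstream of the TSS, takes in the last 45 coding bases of exon 1 and runs into intron 1, and peaks of 7 lines cover it. At *PAX5*, the B cell regulator, the stretch chr9:37002528-37002777 (minus strand) holds the last 129 coding bases of exon 5 of 10 and the start of the next intron, beside an internal TSS, and peaks of CHP-902R, IMR-32, LAN-2, N206 and SH-SY5Y cover it. At *OTX1*, a regulator of the forebrain, the stretch chr2:63279076-63279325 (plus strand) lies in an intron, and peaks of CHP-902R, IMR-32, LAN-2 and SH-SY5Y cover it. This stretch starts 1111 bp downstream of the canonical TSS, past the promoter window, which these peaks overlap only in part. It therefore adds nothing to the promoter cover of *OTX1*.
CDX1: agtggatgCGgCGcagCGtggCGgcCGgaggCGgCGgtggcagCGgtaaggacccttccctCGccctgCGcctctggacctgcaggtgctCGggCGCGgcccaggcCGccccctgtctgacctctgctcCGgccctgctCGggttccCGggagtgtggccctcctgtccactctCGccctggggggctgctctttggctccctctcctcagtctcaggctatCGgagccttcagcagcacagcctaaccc
PAX5: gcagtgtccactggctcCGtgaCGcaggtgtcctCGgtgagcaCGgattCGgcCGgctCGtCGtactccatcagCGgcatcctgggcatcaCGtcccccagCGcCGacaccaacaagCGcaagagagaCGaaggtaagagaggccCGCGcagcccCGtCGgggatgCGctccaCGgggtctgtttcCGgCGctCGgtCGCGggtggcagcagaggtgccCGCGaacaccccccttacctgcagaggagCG
OTX1: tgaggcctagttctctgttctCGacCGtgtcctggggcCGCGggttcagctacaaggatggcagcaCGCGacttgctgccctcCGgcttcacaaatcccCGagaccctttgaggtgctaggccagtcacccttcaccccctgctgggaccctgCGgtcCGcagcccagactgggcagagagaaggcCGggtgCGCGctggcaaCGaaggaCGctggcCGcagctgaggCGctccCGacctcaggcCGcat

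The next pair comes from peaks found in IMR-32 and in no other line. The stretch at *NKX6-2*, a gene of oligodendrocytes and the ventral neural tube, is chr10:134600352-134600601 (minus strand) and ends 701 bp upstream of the TSS, where 37 CpG fall into the 250 bases. The stretch at *DLX4*, a gene of the branchial arches and placenta, is chr17:48049640-48049889 (plus strand) in intron 1 and holds 21 CpG. The IMR-32 peak over it had a score of 213, higher than 99.2% of the peaks of that list.
NKX6-2: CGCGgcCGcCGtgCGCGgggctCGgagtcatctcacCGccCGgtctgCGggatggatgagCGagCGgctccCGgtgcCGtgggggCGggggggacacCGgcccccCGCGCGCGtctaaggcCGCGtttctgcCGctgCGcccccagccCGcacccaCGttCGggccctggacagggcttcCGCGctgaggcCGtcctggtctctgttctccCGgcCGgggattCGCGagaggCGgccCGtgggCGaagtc
DLX4: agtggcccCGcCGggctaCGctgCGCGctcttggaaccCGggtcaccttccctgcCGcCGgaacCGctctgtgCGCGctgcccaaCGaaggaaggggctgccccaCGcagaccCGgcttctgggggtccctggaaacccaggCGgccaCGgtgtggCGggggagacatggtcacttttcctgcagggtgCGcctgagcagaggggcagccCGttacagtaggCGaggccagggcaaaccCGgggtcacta

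*DLX1*, which specifies inhibitory neurons of the forebrain, and *GBX2*, which sets the border of midbrain and hindbrain, had no peak in the promoter window or in the gene body in any line. Their stretches upstream of the TSS, chr2:172949790-172950039 (plus strand) and chr2:237077030-237077279 (minus strand), hold 29 and 28 CpG in 250 bases, within the range of those above, and that of *DLX1* lies within longer annotated transcripts of the gene.
DLX1: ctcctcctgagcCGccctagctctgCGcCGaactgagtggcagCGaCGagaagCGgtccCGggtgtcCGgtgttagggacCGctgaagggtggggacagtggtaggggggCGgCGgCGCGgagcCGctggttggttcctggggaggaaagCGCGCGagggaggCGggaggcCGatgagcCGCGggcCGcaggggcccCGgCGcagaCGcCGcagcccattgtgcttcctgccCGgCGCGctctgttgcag
GBX2: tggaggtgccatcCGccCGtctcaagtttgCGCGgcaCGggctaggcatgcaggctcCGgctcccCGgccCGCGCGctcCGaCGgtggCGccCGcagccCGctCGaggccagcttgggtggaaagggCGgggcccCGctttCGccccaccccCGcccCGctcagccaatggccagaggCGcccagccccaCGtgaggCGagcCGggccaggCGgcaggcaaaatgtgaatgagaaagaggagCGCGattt

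A promoter peak was rare among these genes in 7 of the 8 lines. It was found at 33 of the 58 in IMR-32, where 40.9% of all protein-coding genes had one. The other MNA lines had one at 7 of them in N206 (36.1% of all genes), at 10 in CHP-902R (37.5%) and at 10 in LAN-2 (39.8%). Among the single copy lines the count was 4 in SJNB-1 (33.2% of all genes), 8 in SK-N-AS (33.7%), 11 in CLB-GA (35.6%) and 15 in SH-SY5Y (38.4%). As percentages, 6.90% to 25.9% of the homeobox and PAX genes were marked in the 7 lines, in each of them below the percentage of all genes, whereas 56.9% were marked in IMR-32, above it.

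**Figure D1:**
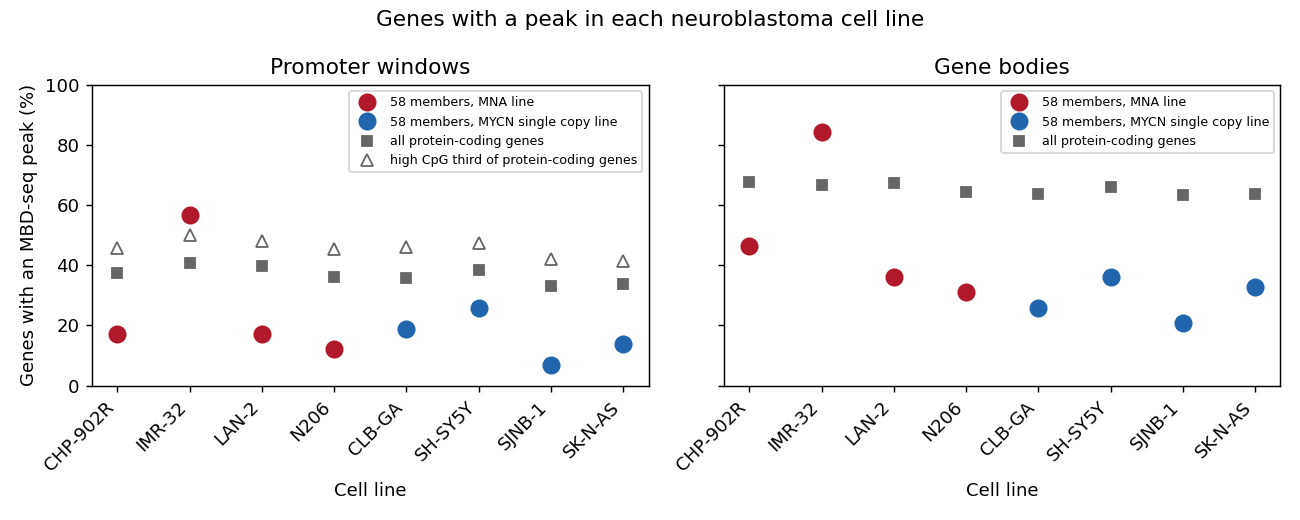
Percentage of genes with a promoter peak (left) or a gene body peak (right) in each NB cell line, with red and blue points for the 58 homeobox and PAX genes in MNA and *MYCN* single copy lines, squares for all 20176 protein-coding genes and triangles for the third of these genes with the highest promoter CpG content. The coloured points lie below the squares in every line except IMR-32, where they reach 56.9% for promoters and 84.5% for gene bodies.

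IMR-32 had the most marked gene bodies too. A peak in the gene body was found at 49 of the 58 genes in IMR-32 (66.8% of all genes), 18 in N206 (64.4%), 27 in CHP-902R (67.9%) and 21 in LAN-2 (67.3%). In the single copy lines it was found at 12 in SJNB-1 (63.5%), 19 in SK-N-AS (63.7%), 15 in CLB-GA (63.6%) and 21 in SH-SY5Y (66.1%). Only in IMR-32 did the share among the homeobox and PAX genes, 84.5%, exceed that of all genes. A longer gene body has more room for a peak, and those of the 58 ran from 2611 bp (*NKX2-8*) to 201000 bp (*PAX5*). The gene bodies were not matched for length to those of all genes, so whether length had a part in these shares was not tested.

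The 58 genes were richer in CpG than all genes, and their shares differed between classes of CpG content. The window around the canonical TSS held a median of 6.06 CpG per 100 bp over the 58 genes, against 4.20 over all protein-coding genes. Of the 58, 42 fell into the third of all genes with the highest CpG content, 15 into the next and 1, *PAX4*, into the lowest. Among all genes of the first of these classes, 41.3% to 50.2% had a promoter peak, depending on the line. Of the 42 homeobox and PAX genes in it, 7.14% to 19.0% had one in the 7 lines. In IMR-32 the share of the 42 was 50.0%, near the 50.2% of all genes of this class in that line. The higher share of the 58 genes than of all genes in IMR-32 therefore did not come from this class. In the next class 11 of the 15 (73.3%) had a promoter peak in IMR-32, against 43.96% of all genes of that class. *PAX4*, in the lowest class, had one too.

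Individual genes were mostly marked in few lines. Of the 58 genes, 42 had a promoter peak in 1 line or more (73.9% of all genes) and 27 in 2 lines or more (60.9%). Only 7 had one in 4 lines or more (39.5%), and 2, *PAX8* and *CDX1*, in 7 lines (13.4%). None had one in all 8 lines (6.11% of all genes), and 16 had none in any line (26.1%). In the gene body, 53 had a peak in 1 line or more (88.3%), 22 in 4 lines or more (71.9%) and 3, *PAX5*, *PAX7* and *LHX4*, in all 8 (32.8%). The bodies of these 3 are 201000, 118021 and 48721 bp long. The share with no promoter peak, 27.6%, was close to that of all genes, but it differed without IMR-32 and between classes of CpG content. Without IMR-32 the share was 46.6% against 29.0% of all genes, and among the genes of high CpG content it was 35.7% against 15.4% over all 8 lines. Of the 16 genes with none, 15 were of high CpG content, so the genes of lower CpG content went the other way. Among all genes, 1035 of the 5272 with none were of high CpG content.

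**Figure D2:**
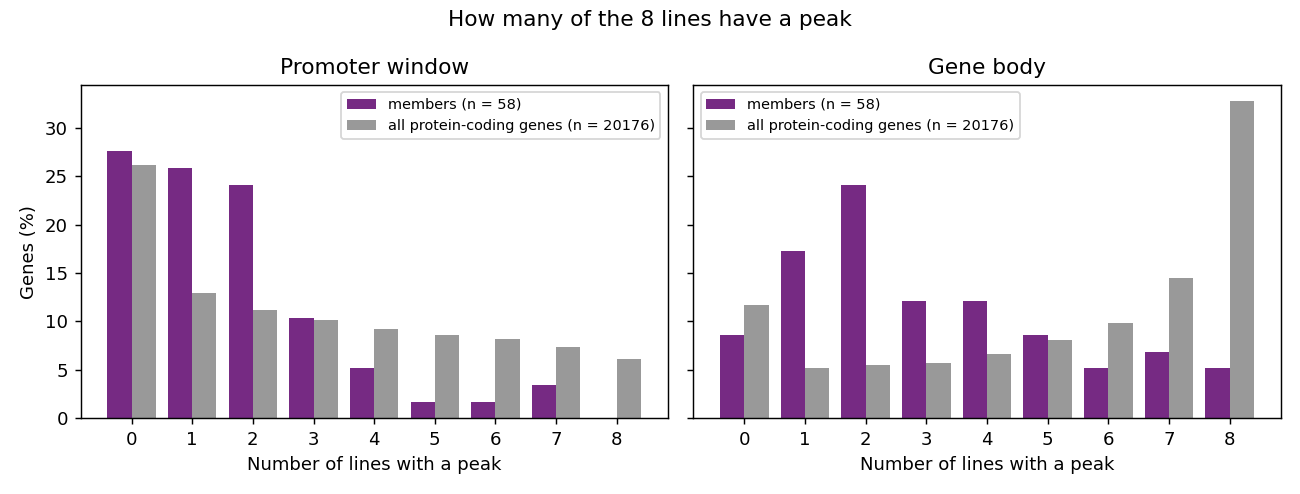
Number of the 8 lines with a peak in the promoter window (left) or the gene body (right), as a percentage of the 58 homeobox and PAX genes (purple) and of all 20176 protein-coding genes (grey). For gene bodies the grey bars are highest at 8 lines with 32.8% and the purple bars at 2 lines with 24.1%. The 2 sets of genes were not matched for length.

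The genes marked in IMR-32 came from every family. A promoter peak in IMR-32 and in no other line was found at 11 of the 58 genes, against 2.84% of all genes: *PAX1*, *PAX3*, *PAX4*, *PAX9*, *NKX2-8*, *NKX6-2*, *IRX4*, *DLX2*, *DLX3*, *DLX4* and *CDX2*. The other 22 of its 33 marked genes had a promoter peak in another line too. A gene body peak in IMR-32 alone was found at 9 genes (1.08% of all genes). Without IMR-32, 27 of the 58 genes had no promoter peak in any line (29.0% of all genes). Conversely, 9 genes (15.5%, against 32.9% of all genes) had a promoter peak in another line and none in IMR-32, namely *PAX7*, *LHX9*, *NKX2-3*, *SIX2*, *SIX3*, *SIX4*, *IRX3*, *IRX5* and *MSX2*.

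The peaks of IMR-32 at these genes had ordinary scores. Of its 105 peaks at the 58 genes, 46 touched a promoter window, while the other lines had 31 to 80 such peaks with 5 to 22 of them at promoter windows. The median score of the 105 was 71.0, against 71.3 for its whole list, and 24 of them (22.9%) reached a score of 100, against 16.5% of the list. They were richer in CpG than the list, with a median of 5.70 CpG per 100 bp against 2.54. In the other 7 lines the peaks at these genes had medians of 2.97 to 4.51 CpG per 100 bp, in each line above that of its list (2.41 to 3.14). For peaks at promoter windows the median was 7.13 in IMR-32 and 4.65 to 7.97 in the other lines, with CLB-GA (7.97) and SJNB-1 (7.27) above IMR-32. By score, these promoter peaks had a median rank above 40.4% of the list in IMR-32. The other lines ranged from 23.6% to 74.3%, with only SK-N-AS (23.6%) and CLB-GA (31.9%) below IMR-32.

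When peaks scoring under 100 were left out, 7 of the 58 genes kept a promoter peak in IMR-32 and 0 to 5 in the other lines, so that the distance between IMR-32 and SH-SY5Y fell to 2 genes. In IMR-32 these 7 were 12.1% of the 58, near the 10.7% of all genes with such a peak. In the other lines 5.58% to 13.9% of all genes had one. This score keeps 16.5% of the peaks of IMR-32 and 11.5% to 22.8% of those of the other lists, so it does not weigh the lines alike. With 1 canonical TSS per gene, 16 genes (27.6%, against 21.1% of all genes) were marked in IMR-32 and at most 10 in the others, and with lists cut to equal length 28 and at most 14. Whether the wider peaks of IMR-32 or its depth had a part in its count was not tested.

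In IMR-32 most of the cover lay downstream of the TSS. This did not hold in every line, since N206 had 4.44% from 1500 to 5000 bp upstream and 3.44% from 1000 to 5000 bp downstream. Peaks of IMR-32 covered 16.8% of the DNA from 1000 to 5000 bp downstream of the canonical TSS of the 58 genes, compared with 2.00% to 6.46% in the other lines and 4.62% over all protein-coding genes in IMR-32. From 250 to 1000 bp downstream the values were 12.7% in IMR-32 and 1.46% to 5.48% in the others. Over all protein-coding genes IMR-32 was the highest there too, with 5.94% against 2.84% to 4.37%. Within 250 bp of the TSS the cover in IMR-32, 3.13%, was inside the range of the other lines, 0 to 3.49%. From 250 to 1500 bp upstream it was 3.29%, and SH-SY5Y was higher with 5.87%. Farther upstream IMR-32 was again the highest line, with 7.92% against 0.697% to 4.44% from 1500 to 5000 bp and 4.004% against 1.53% to 3.73% from 5000 to 10000 bp.

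**Figure D3:**
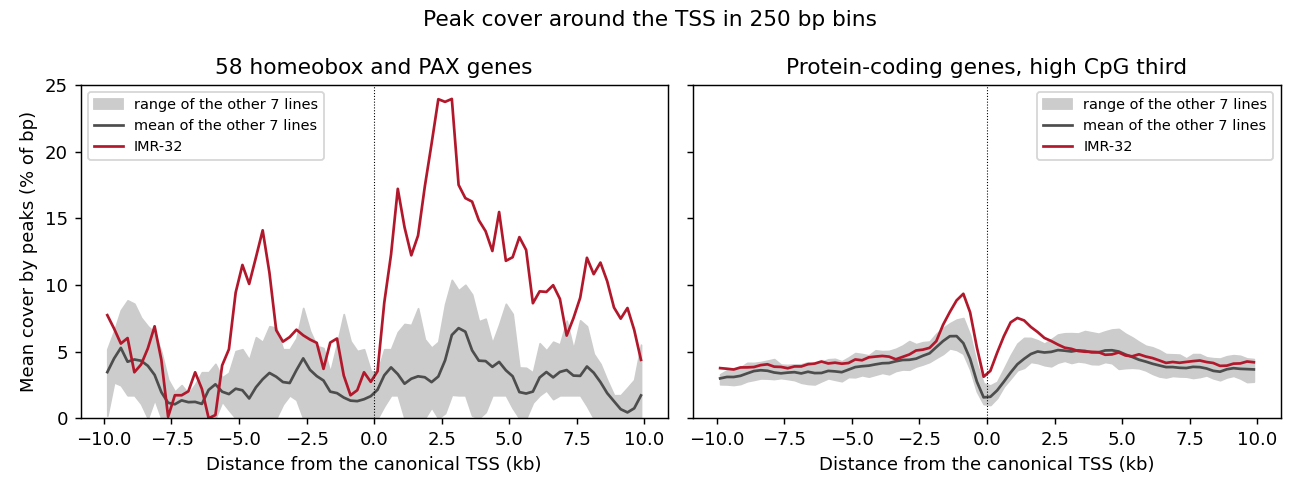
Mean percentage of bp covered by peaks in bins of 250 bp around the canonical TSS, for the 58 homeobox and PAX genes (left) and for the third of protein-coding genes with the highest promoter CpG content (right), with IMR-32 in red, the mean of the other 7 lines in dark grey and their range in light grey. At the 58 genes IMR-32 rises to 24.0% between 2750 and 3000 bp downstream, above the highest other line at 10.4%, and returns into the grey range at the TSS.

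Peaks over the TSS were few, as they were among all genes. A peak over the canonical TSS itself was found at 5 of the 58 genes in at least 1 line, *PAX5*, *PAX8*, *LHX3*, *SIX3* and *CDX1* (8.62%, against 11.5% of all genes). Within 250 bp of the TSS there was one at 12 (20.7%, against 17.6% of all genes). These shares were near those of all genes. In single lines 0 to 2 of the 58 had a peak over the TSS, and 2.46% to 4.81% of all genes. Over all lines there were 456 peaks at these genes, and the midpoint of 281 of them lay in an intron, of 115 in coding sequence, of 31 upstream, of 21 in untranslated exon sequence and of 8 downstream of the gene.

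Of the PAX genes, which act in kidney, thyroid, B cells, eye, pancreas, muscle and neural crest, 8 of 9 had a promoter peak in IMR-32 and 1 to 5 in the other lines. *PAX8*, a regulator of thyroid and kidney, had a promoter peak in every line except N206. Peaks covered 10.3% of its promoter windows in IMR-32, 0% in N206, 11.5% in CHP-902R and 9.80% in LAN-2. In the single copy lines they covered 9.35% in SJNB-1, 9.06% in SK-N-AS, 10.3% in CLB-GA and 15.9% in SH-SY5Y, so that 7 lines had similar values and N206 none. A peak about 43 kb into the gene, in windows of internal TSS shared with the antisense gene *PAX8-AS1*, was present in IMR-32, CHP-902R, SJNB-1, SK-N-AS and SH-SY5Y, and only the CHP-902R list had one over the canonical TSS.

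*PAX5* had a promoter peak in 6 lines, all 4 MNA lines, SH-SY5Y and SK-N-AS. The cover of its windows was 21.2% in IMR-32, 13.5% in N206, 15.0% in CHP-902R, 4.75% in LAN-2, 27.6% in SH-SY5Y and 3.25% in SK-N-AS. SH-SY5Y had the highest value, so that the groups overlapped. At *PAX7*, which acts in neural crest and muscle stem cells, the only promoter peak was that of SH-SY5Y, covering 26.5%, although every line had a peak in the gene body. *PAX1* and *PAX9*, of the vertebral column and pharyngeal pouches, were covered to 23.0% and 24.9% in IMR-32 and to 0% in the other lines. *PAX3* (3.88%) and *PAX4* (11.4%) were likewise covered in IMR-32 alone. *PAX2* was covered to 22.1% in IMR-32 and 4.68% in SH-SY5Y, and *PAX6*, the regulator of eye and islet development, to 5.36% and 1.74% of its windows, which span 22076 bp over 66 TSS.

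**Figure D4:**
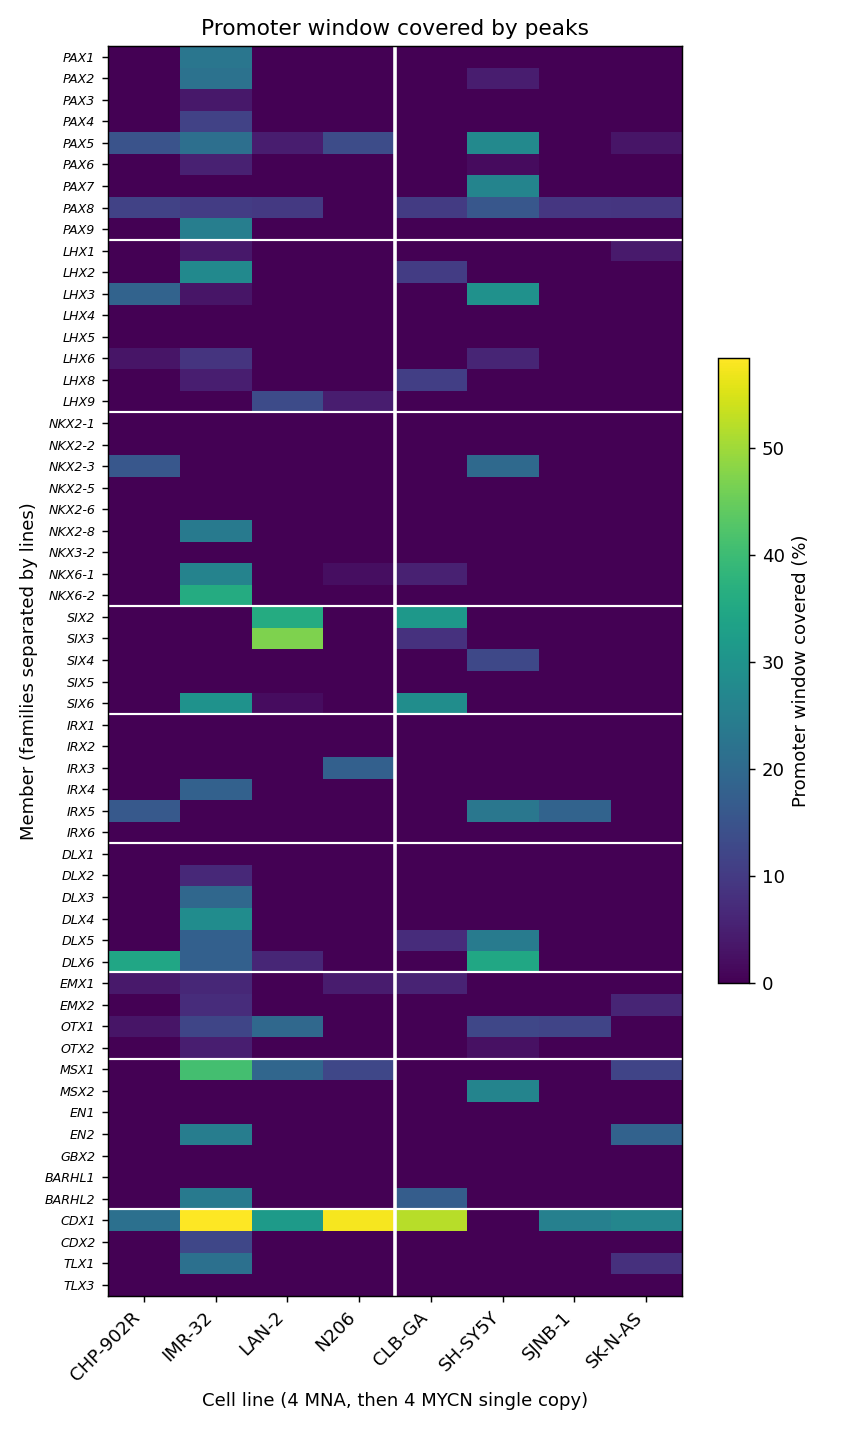
Percentage of the promoter windows covered by peaks for each of the 58 genes (rows, grouped by family) in each of the 8 NB cell lines (columns, MNA lines to the left of the white line), with brighter colours for more cover. The brightest cells are *CDX1* in IMR-32 (58.4%) and N206 (57.5%), and the IMR-32 column holds the most coloured cells with 33.

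The LIM homeobox genes specify neurons and the pituitary. Of the 8, 5 had a promoter peak in IMR-32 and 0 to 2 in the other lines. *LHX3*, of pituitary and motor neurons, was covered to 29.5% in SH-SY5Y and 18.6% in CHP-902R, both by a peak over the TSS, and to 3.29% in IMR-32. *LHX6*, of cortical interneurons, had promoter peaks in CHP-902R (3.41%), IMR-32 (8.81%) and SH-SY5Y (6.15%). *LHX2* was covered to 27.7% in IMR-32 and 10.3% in CLB-GA, and *LHX8* to 4.84% and 10.8% in the same lines. *LHX1* had 3.66% in IMR-32 and 4.19% in SK-N-AS. *LHX9*, a gene of the early gonad, had promoter peaks in LAN-2 (13.3%) and N206 (4.75%) only, although 7 lines had a peak in its body. *LHX4* and *LHX5* had no promoter peak in any line, yet the body of *LHX4* carried a peak in all 8 lines.

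The *NKX* genes were seldom marked at the promoter. Of 9, 5 had no promoter peak in any line: *NKX2-1* of thyroid, lung and ventral forebrain, *NKX2-2* of the ventral neural tube, *NKX2-5* of the heart, *NKX2-6*, and *NKX3-2* of the axial skeleton. Each of the 5 had a gene body peak in IMR-32, and *NKX3-2* also in CHP-902R, LAN-2 and SH-SY5Y. *NKX6-1*, of motor neurons and beta cells, was covered to 26.1% in IMR-32, 2.23% in N206 and 5.37% in CLB-GA. *NKX6-2* and *NKX2-8* were covered to 36.0% and 23.8% in IMR-32 alone. *NKX2-3*, of spleen and gut, was one of the few marked elsewhere and not in IMR-32, with 15.9% in CHP-902R and 19.9% in SH-SY5Y.

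Among *SIX2* to *SIX6*, more genes were marked in CLB-GA and LAN-2 than in IMR-32. In CLB-GA 3 of the 5 had a promoter peak, as did 3 in LAN-2, against 1 in IMR-32. *SIX3*, which is needed for forebrain and eye, was covered to 47.1% in LAN-2, where the peak lay over the TSS, and 8.44% in CLB-GA. *SIX2*, of nephron progenitors, was covered to 35.9% and 31.2% in the same lines. *SIX6* was covered to 28.7% in CLB-GA, 29.7% in IMR-32 and 1.84% in LAN-2. *SIX4* had a promoter peak in SH-SY5Y only (12.6%), and *SIX5* had none.

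Of the 6 Iroquois (*IRX*) genes, which pattern the neural plate and the heart, *IRX1*, *IRX2* and *IRX6* had no promoter peak. *IRX5* was covered to 16.4% in CHP-902R, 23.1% in SH-SY5Y and 18.6% in SJNB-1. *IRX3* had 17.9% in N206 alone, and *IRX4* 18.1% in IMR-32 alone. These genes had the highest median CpG content of the families, 9.24 per 100 bp, and the fewest marked genes relative to their number in IMR-32, 1 of 6.

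The distal-less (*DLX*) genes act in forebrain interneurons, jaws and limbs, and 5 of the 6 had a promoter peak in IMR-32 against 0 to 2 in the other lines. *DLX6* was covered to 17.8% in IMR-32, 34.5% in CHP-902R, 6.31% in LAN-2 and 34.8% in SH-SY5Y. Its partner *DLX5* had 17.9% in IMR-32, 7.32% in CLB-GA and 24.3% in SH-SY5Y. *DLX2* (6.76%), *DLX3* (19.6%) and *DLX4* (28.5%) were covered in IMR-32 alone. All 4 of *EMX1*, *EMX2*, *OTX1* and *OTX2*, regulators of cortex and forebrain, had a promoter peak in IMR-32, and *OTX1* had one in 5 lines. The cover at *OTX1* was 3.25%, 12.3% and 19.8% in CHP-902R, IMR-32 and LAN-2, and 12.5% and 12.1% in SH-SY5Y and SJNB-1. These peaks were not all at the same place, since that of SJNB-1 ended 1876 bp upstream of the canonical TSS and those over the stretch shown above lay downstream. *EMX1* was covered to 6.57% in IMR-32, 4.09% in CHP-902R, 4.48% in N206 and 5.73% in CLB-GA. *EMX2* (7.42% in IMR-32, 6.05% in SK-N-AS) and *OTX2* (4.94% in IMR-32, 2.56% in SH-SY5Y) had a promoter peak in 2 lines each.

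*MSX1*, a gene of the neural crest derivatives of the face, was covered to 41.0%, 19.4% and 12.4% in IMR-32, LAN-2 and N206 and to 12.1% in SK-N-AS. *MSX2* had a promoter peak in SH-SY5Y alone (26.3%). *EN2*, of the midbrain and hindbrain, was covered to 24.9% in IMR-32 and 18.4% in SK-N-AS, and *BARHL2* to 24.1% in IMR-32 and 17.3% in CLB-GA. *EN1*, *GBX2* and *BARHL1* had no promoter peak in any line. *CDX1* had the largest cover of all 58 genes, with 58.4% in IMR-32, 57.5% in N206, 21.5% in CHP-902R and 31.8% in LAN-2. Its cover was 25.4% in SJNB-1, 26.8% in SK-N-AS and 52.1% in CLB-GA, and SH-SY5Y alone had no peak there. Its relative *CDX2* had 12.4% in IMR-32 alone, and *TLX1*, of the spleen, 21.5% in IMR-32 and 8.14% in SK-N-AS. *TLX3* had no promoter peak in any line.

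Several of the genes are neighbours and were looked at as loci with 10 kb on either side. The locus of *NKX2-1*, *NKX2-8* and *PAX9* on chromosome 14 held 6 peaks in IMR-32 (2.78% of the DNA), 1 in SH-SY5Y (0.277%) and 0 in the other 6 lines. The locus of *NKX2-2* and *PAX1* on chromosome 20 was similar, with 7 peaks in IMR-32 (2.45%) and 0 to 2 in the others. At *DLX4* and *DLX3* the cover was 15.8% in IMR-32 and 0 to 5.84% in the others. At *DLX6* and *DLX5* on chromosome 7, peaks were found in every line and covered from 2.11% (SJNB-1) to 18.9% (LAN-2), with IMR-32 inside that range at 12.1%. At *SIX3* and *SIX2* on chromosome 2 the cover was highest in SH-SY5Y with 12.9% and lay between 3.63% and 6.96% in the other lines. IMR-32 was therefore not the most covered line at each locus.

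**Figure D5:**
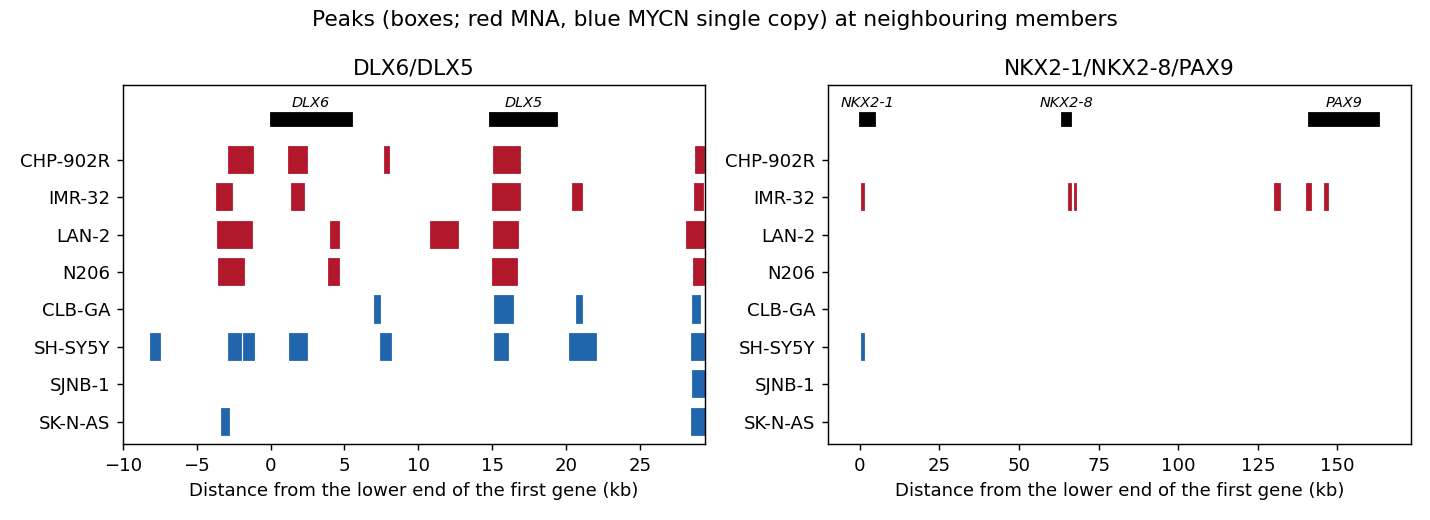
Peaks as boxes (red for MNA, blue for *MYCN* single copy lines) along the loci of *DLX6* and *DLX5* (left) and of *NKX2-1*, *NKX2-8* and *PAX9* (right), by distance in kb from the lower end of the first gene, with genes as black bars. At the first locus every line has peaks, from 1 in SJNB-1 to 8 in SH-SY5Y, whereas at the second IMR-32 has 6, SH-SY5Y 1 and the other lines 0.

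The comparison of the *MYCN* groups gave no gene that separated them. The MNA lines had a promoter peak at 15.0 ± 12.1 of the 58 genes (SD, n = 4) and the single copy lines at 9.5 ± 4.65 (SD, n = 4), a difference of 5.5 within the spread between lines. Without IMR-32 the MNA lines had 9.0 ± 1.73 (SD, n = 3), 0.5 below the single copy lines. More MNA than single copy lines had a promoter peak at 23 genes (30.3% of all genes), and more single copy lines at 6 (21.8%). For 11 of the 23, IMR-32 was the only MNA line with a peak. The widest difference was 2 lines, at *PAX5*, *LHX9*, *DLX6*, *EMX1* and *MSX1*, each with more MNA lines.

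None of the 58 genes was marked at the promoter in each line of one group and in no line of the other, a pattern found at 0.198% of all genes for the MNA group and 0.104% for the single copy group. The same held for gene bodies, where 0.0942% and 0.0496% of all genes had this pattern. In two-sided Fisher's exact tests over all 20176 genes, in which 4 lines against 4 allow no p below 0.0286, the smallest p among the 58 was 0.429 with an adjusted p of 1. For the percentage of the windows covered, the two-sided exact permutation test gave a smallest p of 0.143, at *MSX1*, with an adjusted p of 1. At *MSX1* the cover was 18.2% ± 17.2 in MNA lines and 3.02% ± 6.04 in single copy lines (SD, n = 4 each), and 10.6% in the MNA lines without IMR-32. Without CHP-902R, where *MSX1* had no peak, its p in the same exact test was 0.0286, the smallest that 3 lines against 4 allow, and the adjusted p stayed above 0.05. No gene of the 20176 passed an adjusted p of 0.05 in either test, while 61 in Fisher's exact test and 247 in the permutation test, none of them among the 58 with all 8 lines, had an unadjusted p below that value. The permutation test was below it at 0.867% of all genes with more cover in MNA lines and at 0.357% with less.

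A promoter window may belong to more than one gene. For 25 of the 58 genes it also held the TSS of another gene, most often an antisense or divergent transcript such as *DLX6-AS1*, *NKX2-1-AS1* or *EMX2OS*, and peaks carry no strand, so a peak there cannot be assigned to one of the pair.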

How the data were processed

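Genomic DNA of 8 NB cell lines was sheared, captured with MBD2 and sequenced as paired ends, 1 sample per line. Per the labels and the published methods, the authors mapped the reads to GRCh37 with Bowtie 0.12.7, and MACS was run for each line on its own. The options of the peak calling and any input control were not given in the sources used here. The deposited score of a peak was taken as −10 times the log10 of the MACS p-value, so that its minimum of 50 corresponds to a p-value of 1e-05. It depends on depth, so a minimum of 100, used as an alternative, keeps 11.5% (SK-N-AS) to 22.8% (LAN-2) of a list. The lists hold no read counts, and the depth of each single line was not given in the sources used here.

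Windows from 1500 bp upstream to 1000 bp downstream were placed around every TSS (GENCODE release 44, lifted to GRCh37) and joined per gene, so genes with many TSS have longer windows. The peak overlap, the bp covered and the CpG content were computed with Python 3.11.15, numpy 2.4.6, pandas 2.3.3 and scipy 1.17.1, and figures were drawn with matplotlib 3.10.9. The *MYCN* groups were compared per gene with two-sided Fisher's exact tests and two-sided exact permutation tests over all 20176 protein-coding genes, with Benjamini-Hochberg adjustment. The step that finds genes marked in all lines of one group and none of the other was tested on simulated data of 20176 genes, in which 200 of 200 planted genes were found again. This checks the overlap of peaks and windows and not the power of the tests, since 4 lines against 4 allow no low adjusted p.

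The 58 genes and the comparison lists (*HOX*, *FOX* and *SOX*, other homeobox) were chosen with earlier results of these data known. Named genes are those with a promoter peak in at least 7 lines or in none, those differing by at least 3 lines between groups, the most and least marked of each family, and neighbours under 200 kb apart. The remaining genes were given values so that all 58 are accounted for, and the 5 that differ by 2 lines were named after their values were seen. The alternatives were a score of at least 100, the top 70816 peaks of each list, windows to 500 bp downstream or within 500 bp, 1 TSS per gene, TSS of protein-coding transcripts, the peak midpoint, at least 200 bp of cover, and each line left out in turn.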

Additional observations from a re-analysis of the deposited data

Results flagged for a closer look

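Of 27 sets of 4 lines examined for 1 line far from the rest (Dixon's ratio of the gap to the range), 5 had such a line. The usual rate of about 1 in 20 by chance does not apply here, since the sets share peak lists. Single genes were also examined only where most lines of the group had cover, which favours a single line with none. In 4 of them it was IMR-32 among the MNA lines. It had a promoter peak at 33 of the 58 homeobox and PAX genes, a mean cover of their promoter windows of 10.5%, and a promoter peak at 21 of the 42 genes with a high CpG content, with ratios of 0.885, 0.844 and 0.938. It also had a promoter peak at 31 of 63 *FOX* and *SOX* genes (ratio 0.933). These 4 measures come from one peak list and are not independent. The fifth was *PAX8* in N206, with a cover of 0% against 9.80% to 11.5% in the other MNA lines (ratio 0.850).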

How the results depend on the processing

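The difference between the *MYCN* groups in the number of marked genes, 5.5, ranged from -0.5 to 8.17 when each line was left out in turn, and changed sign to -0.5 without IMR-32. The difference in mean cover, 1.92 percentage points, ranged from -0.0548 to 2.79 and likewise changed sign to -0.0548 without IMR-32. When peaks scoring under 100 were left out, the mean number of genes with a promoter peak per line fell from 12.25 to 3.125 and that with a gene body peak from 22.75 to 8.625, the number marked in at least 4 lines from 7 to 0, and the number marked in no line rose from 16 to 40. The numbers for at least 4 lines and for no line were 4 and 27 with windows within 500 bp, and 3 and 31 with 1 TSS per gene, as fewer bp are searched. The shares of all genes marked in at least 4 lines or in no line were not computed under these alternatives. With peaks scoring under 100 left out, 5.58% to 13.9% of all genes had a promoter peak, depending on the line. Leaving out each line gave 4 to 7 genes marked in at least 4 lines and 16 to 27 marked in no line, with the extremes of 4 and 27 both without IMR-32. It gave 0 to 1 genes marked in every line, with 1 without N206 (*PAX8*) and 1 without SH-SY5Y (*CDX1*). Leaving out lines gave means of 9.29 to 13.4 genes with a promoter peak and 19.0 to 24.3 with a gene body peak. With windows within 500 bp, 23 genes were marked in IMR-32 (39.7%, against 29.1% of all genes) and at most 8 in the other lines (21.5% to 27.5% of all genes). None of the 58 genes separated the groups or passed an adjusted p of 0.05 under any alternative run, where the number of lines allows no low adjusted p; *MSX1* reached an unadjusted p of 0.0286 in the exact permutation test of cover without CHP-902R. No paired analysis was possible because the lines of the 2 groups are separate cultures. With 1 sample per line and the depth of each line unknown, a missing peak says only that none was called.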

Other observations

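IMR-32 also had the most marked genes in 3 lists of other developmental regulators that share no gene with the 58. It was the most marked line over all protein-coding genes too, with a promoter peak at 40.9% of them against 33.2% to 39.8% in the other 7 lines. Of the 39 *HOX* genes, which set position along the body axis, 26 (66.7%) had a promoter peak in IMR-32, against 3 to 9 (7.69% to 23.1%) in the other 7 lines. A peak over the canonical TSS was found at 9 of the 39 in IMR-32 and at 0 to 4 in the others, whereas at the 58 homeobox and PAX genes IMR-32 had 1. Of all protein-coding genes, 4.81% had such a peak in IMR-32 and 2.46% to 4.53% in the others. The *HOX* genes lie in 4 clusters with windows that meet each other, so 1 peak can mark several of them. Of 63 *FOX* and *SOX* genes, 31 (49.2%) were marked in IMR-32 and 16 to 23 (25.4% to 36.5%) in the others. Of 104 other homeobox genes, 48 (46.2%) were marked in IMR-32 and 25 to 43 (24.0% to 41.3%) in the others, with SH-SY5Y the next in number in both lists. These lists were compared by their counts alone, and no test was made of 1 line against 7.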
